A study of Homo sapiens with 26 samples.

Results

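Antisense rows are the rows of the fraction count files whose symbol is a gene name followed by -AS and a digit. They were taken as members when they held at least 24 counts summed over the 24 fraction files, which 106 of 876 such rows did, among 56638 gene rows in all. The members were therefore chosen by their own summed counts, and those sums are given as a description. Just inside the limit lay ZEB2-AS1 and CACTIN-AS1 with 24 counts each, and just outside it SNRK-AS1 and HOXB-AS1 with 23 counts each.

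RNA came from SK-MEL-28, a human melanoma cell line, so all values are those of 1 line. Cells were kept in salubrinal for 72 h, and control cells were not; all lysates were made after 12 min of cycloheximide at 100 µg/mL, which holds ribosomes on RNA. Salubrinal keeps the translation factor eIF2α phosphorylated and so switches on the integrated stress response. Each treatment has 3 replicates of 4 pools from a sucrose gradient of 5 to 20% (40S, 60S, 80S and polysome) and 1 input library. In bulk RNA, fewer cells and less RNA per cell cannot be told apart.

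An antisense transcript is read from the strand opposite to another gene and is usually named after that gene. Many are long non-coding RNAs; some start near the promoter of the sense gene, some lie inside its body, and for a few an effect on the sense gene is known. In a gradient, free subunits and small particles stay near the top, single ribosomes sediment further, and RNAs carrying several ribosomes sediment furthest.

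Outside ribosomal RNA rows, the 4 fraction files of each library agreed within sampling noise (chi-square over degrees of freedom 0.936 to 1.03). So did their antisense rows taken alone (0.447 to 1.02). With 15 and 3 degrees of freedom in salubrinal libraries 1 and 2, the antisense rows say little there. The 3 replicates of a fraction differed (1.57 to 8.15). The 4 files were therefore summed to 6 libraries. The control 40S files titled replicates 1 and 2 matched libraries 2 and 1 and were placed there. Against the polysome file of their title number they gave 2.08 and 2.29, and as placed 0.840 and 0.926. The agreement above was computed after that placement, so for these files it was selected. Gene rows held 4.72 to 5.79% of the counts of a file, nearly all of them ribosomal RNA. The counts left outside ribosomal RNA were 10158, 3768 and 73598 in salubrinal libraries 1 to 3, against 86473, 22640 and 93743 in control libraries 1 to 3. Salubrinal libraries 1 and 2 were the shallowest. In the input files 5 of 7 melanocytic markers held 432 to 16793 counts, MLANA was listed at 0 in both, TYRP1 had 0 counts with salubrinal and 5 in control, and 12 markers of keratinocytes, fibroblasts, leukocytes and endothelium held at most 43.

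The members summed to 16149 counts, of which VIM-AS1 alone held 38.9%. The median member had 57.5 counts, 29 members had 100 or more and 48 had under 50. Members made up 4.80, 2.65 and 5.77% of the counts outside ribosomal RNA in the salubrinal libraries and 5.48, 5.39 and 5.72% in the control libraries. Salubrinal library 2, with 100 member counts in all, was the low one. Of the antisense rows 12.1% reached 24 counts, and of all other rows outside ribosomal RNA 2.49% did. Among other named non-coding rows, 3 of 623 LINC rows, 2 of 15 SNHG rows (hosts of small nucleolar RNAs) and 0 of 139 rows for intronic or overlapping transcripts reached 24 counts.

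RefSeq (GRCh38.p14) knew 99 of the 106 members by name, 95 of them as long non-coding RNAs. It places 93 of 97 members over the gene they are named for, and in the 68 pairs whose strands it gives, 68 lie on opposite strands. The 4 that do not overlap their namesake overlap other genes, as SETD5-AS1 overlaps THUMPD3 and DNAJC9-AS1 overlaps MRPS16. HNRNPU-AS1 is an older name of HNRNPU itself in this table, and CEBPZ-AS1 and SPTY2D1-AS1 are now listed as coding genes of their own. In 39 pairs every annotated antisense start lies inside the span of the sense gene, in 6 some do and some do not, and in 23 none does. The windows below, of 250 bases before and 50 bases after an annotated start, show both arrangements; capitals mark the 50 bases after the start. VIM-AS1, the member with the most counts, has 1 start inside VIM (chr10:17229936-17230235, minus strand, 1744 bases downstream of the VIM start) and 1 outside it (chr10:17226849-17227148, minus strand). HIF1A-AS1 starts inside HIF1A, 310 bases downstream of its start (chr14:61695774-61696073, minus strand), and PXN-AS1, the member second in counts, starts outside PXN (chr12:120201041-120201340, plus strand).
VIM-AS1 inside: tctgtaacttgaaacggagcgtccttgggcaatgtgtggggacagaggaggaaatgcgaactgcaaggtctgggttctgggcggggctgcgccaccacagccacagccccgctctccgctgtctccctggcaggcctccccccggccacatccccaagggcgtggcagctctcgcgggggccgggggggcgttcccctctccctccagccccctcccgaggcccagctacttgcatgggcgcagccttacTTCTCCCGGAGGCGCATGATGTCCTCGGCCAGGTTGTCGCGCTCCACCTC
VIM-AS1 outside: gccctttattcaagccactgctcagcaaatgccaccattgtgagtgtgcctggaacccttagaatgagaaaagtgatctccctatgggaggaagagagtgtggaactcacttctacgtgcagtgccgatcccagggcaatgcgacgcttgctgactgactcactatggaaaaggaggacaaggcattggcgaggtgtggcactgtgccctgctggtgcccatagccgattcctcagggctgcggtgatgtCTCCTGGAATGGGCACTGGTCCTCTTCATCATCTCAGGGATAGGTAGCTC
HIF1A-AS1: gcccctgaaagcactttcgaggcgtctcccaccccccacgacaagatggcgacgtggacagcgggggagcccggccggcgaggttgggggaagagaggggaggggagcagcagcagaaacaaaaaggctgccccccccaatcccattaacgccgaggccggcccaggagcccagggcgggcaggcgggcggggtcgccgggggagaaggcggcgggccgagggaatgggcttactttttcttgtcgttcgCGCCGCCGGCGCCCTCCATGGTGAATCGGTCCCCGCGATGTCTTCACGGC
PXN-AS1: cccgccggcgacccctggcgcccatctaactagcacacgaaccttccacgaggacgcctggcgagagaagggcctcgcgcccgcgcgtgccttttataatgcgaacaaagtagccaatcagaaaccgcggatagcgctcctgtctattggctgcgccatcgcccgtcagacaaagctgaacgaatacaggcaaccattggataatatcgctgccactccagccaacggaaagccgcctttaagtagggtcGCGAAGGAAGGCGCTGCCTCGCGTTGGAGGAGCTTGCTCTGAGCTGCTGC

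A sense row exists in the fraction files for 104 members. The antisense row held more counts than the sense row in 101 pairs and fewer in 3. Together the antisense rows of these pairs held 16043 counts and the sense rows 1012; without VIM-AS1 they held 9763 and 989. The median sense row had 3 counts, 23 pairs had none on the sense row, and 5 sense genes reached 24 counts. Counts were not divided by transcript length, which the files do not give, and the balance was not tested because the choice of members used the antisense counts.

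**Figure D1:**
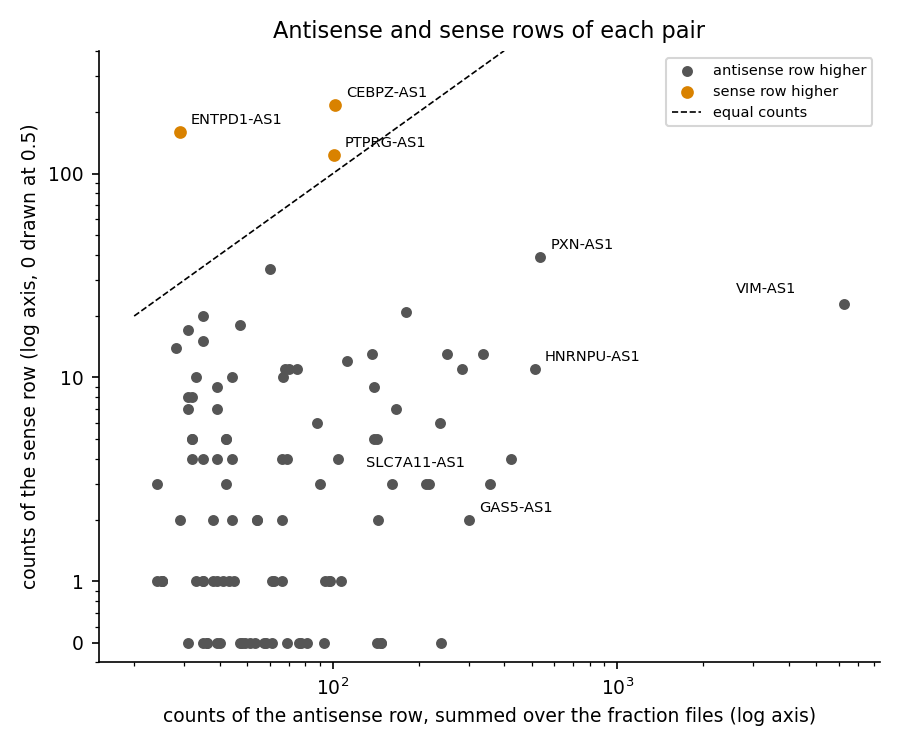
Each point is a pair, with the counts of the antisense row over the 24 fraction files on the horizontal axis and of the sense row on the vertical axis, both logarithmic, with 0 drawn at 0.5. Of 104 pairs, 101 lie below the dashed line of equal counts, VIM-AS1 lies far to the right with 6280 counts, and ENTPD1, CEBPZ and PTPRG lie above the line.

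Antisense rows held most of the pair counts in every library, which is a description, since the antisense counts chose the pairs. They held 94.7% (exact binomial interval 92.4 to 96.5%), 99.0% (94.5 to 99.97%) and 94.6% (93.9 to 95.3%) of pair counts in salubrinal libraries 1 to 3, at a level of 95%. The share was 93.8% (93.1 to 94.5%), 92.8% (91.3 to 94.1%) and 94.0% (93.4 to 94.6%) in control libraries 1 to 3. These intervals, like all others here, cover counting error only. Salubrinal library 2, the highest, had 1 sense count in all, and the other 5 libraries lay between 92.8 and 94.7%.

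ENTPD1-AS1 had 29 counts against 160 for ENTPD1, which encodes an ectonucleotidase of the cell surface. CEBPZ-AS1 had 102 counts against 217 for CEBPZ, a CCAAT-binding protein, and PTPRG-AS1 had 101 against 123 for PTPRG, a receptor tyrosine phosphatase. In these 3 pairs, the ones with more sense counts, every antisense start lies outside the sense gene: 20 of the 23 pairs of that kind had more antisense counts, as did the 39 whose starts all lie inside and the 6 with both kinds. The next lowest antisense shares among pairs with at least 100 counts were those of STARD7-AS1 (89.6%), ZNF337-AS1 (90.3%) and H1FX-AS1 (91.3%).

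The sense rows themselves had few counts, as did other gene rows of like input level. Among genes with 50 to below 500 counts over the 2 input files, the 26 sense genes of members had a median of 2.5 counts over the 24 fraction files and 4579 other rows a median of 0, and 7.69% and 4.87% reached 24 counts. With 500 to below 2000 input counts, the medians were 2 for 28 sense genes and 1 for 2402 other rows, and 7.14% and 4.50% reached 24 counts. Among genes with at least 2000 counts over the 2 input files, the 22 sense genes of members had a median of 3.5 counts over the 24 fraction files, and 905 other rows a median of 2. In that class 4.55% of the sense genes and 4.86% of the other rows reached 24 counts. For VIM, which encodes the intermediate filament protein vimentin, the input held 61232 counts with salubrinal and 26690 in control, while the 24 fraction files held 23 VIM counts beside 6280 of VIM-AS1. Reads of a gene and of its antisense partner can be told apart only by strand where they overlap, so the names stand for rows of the files. Libraries were made with a stranded kit, and which strand was counted is not given in these sources. Reads outside any annotated feature were 42.8 to 112 times the counts outside ribosomal RNA in the salubrinal libraries and 34.5 to 50.2 times in the control libraries. The part of the strand setting in the balance of antisense and sense rows was not tested.

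Antisense rows with more counts were named for genes with more input counts. Across the 782 of 876 antisense rows whose namesake has an input row, the gene named before -AS had a median of 10 input counts where the antisense row had none, 253 where it had 1 to 23, 457 where it had 24 to below 100, and 1910 where it had 100 or more. Across 93 genes with members and an input row, log2 antisense counts and log2 input counts of the sense gene gave Pearson's r = 0.25 and Spearman's rho = 0.26. Without VIM-AS1 these were 0.15 and 0.23, and over the 76 genes with at least 50 input counts 0.46 and 0.29. Sense-row counts against input gave 0.10 and 0.11 over the 93. These are descriptions across genes, which share the same libraries and are not divided by length. The input rows carry mouse-style symbols, so a row listed at 0, as for Gas5 and Lipe, need not mean that the gene is silent.

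**Figure D2:**
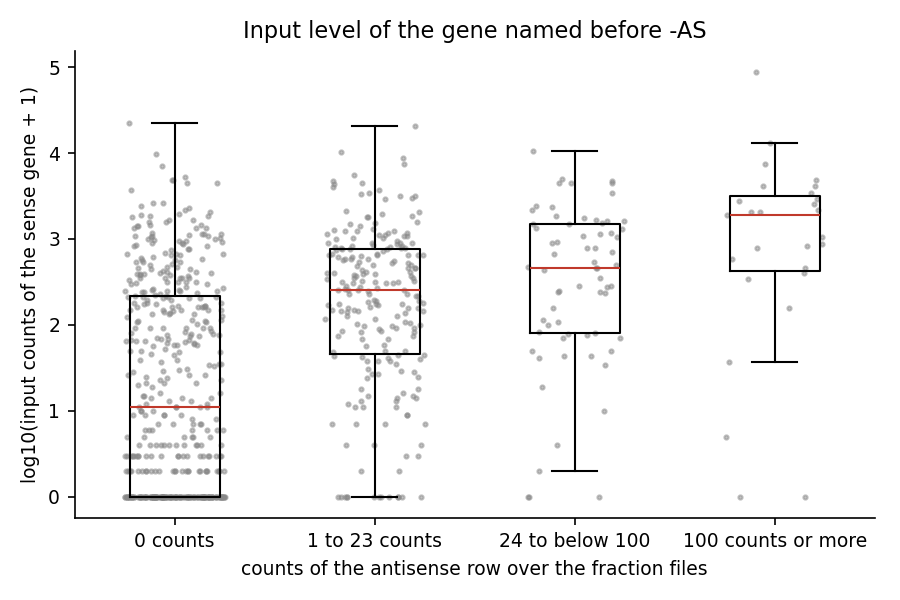
Points are antisense rows by their counts over the fraction files, and the vertical axis gives log10 of the input counts of the gene named before -AS plus 1; boxes show quartiles, the red line the median, and whiskers the range without far points. The median rises over the 4 classes, at 10, 253, 457 and 1910 counts, and every class spreads widely.

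The treatment was tested with edgeR's quasi-likelihood test on the 6 summed libraries, 3 salubrinal and 3 control, with TMM scaling and Benjamini-Hochberg adjustment over all 913 rows that passed the filter on low counts. Of the 106 members 62 were tested and 44 were too low. The filter asked for about 4.63 CPM (counts scaled to library size) in 3 libraries; 19 members met it in 3 control libraries and fewer salubrinal ones, VIM-AS1 alone met it in 3 salubrinal libraries, and counts over the tested members are therefore no summary of all 106. At an adjusted p under 0.05, 4 members changed, 2 higher and 2 lower with salubrinal. That is 6.45% of those tested, and 5.7% of all rows tested were called (3.61% higher, 2.08% lower). The median log2 fold change, salubrinal over control, was -0.05 over the tested members and -0.07 over all rows. The labels do not say whether replicates were separate cultures, so p-values reflect the spread between these libraries, which may be technical.

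GAS5-AS1, named for the growth-arrest RNA GAS5 that hosts small nucleolar RNAs, rose with salubrinal. It had 24, 2 and 142 counts in the salubrinal libraries and 46, 11 and 76 counts in the control libraries. On the TMM-scaled CPM scale these were 38.6, 8.05 and 27.2 with salubrinal and 6.65, 6.66 and 10.1 in control. Salubrinal libraries 1 and 3 lay above every control library, and salubrinal library 2, with 2 counts, lay among them. The log2 fold change was 1.77 ± 0.36 (SE, n = 3 each, edgeR adjusted p = 0.000122). Leaving out 1 library kept the call in 5 of 6 cases; without control library 1 it was 1.56 with an adjusted p of 0.0950. The GAS5 row itself had 2 counts over the 24 fraction files.

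SLC7A11-AS1 is named for SLC7A11, the cystine and glutamate exchanger whose gene is a target of the stress response factor ATF4. It had 7, 3 and 87 counts with salubrinal and 47, 13 and 60 in control, or 11.3, 12.1 and 16.7 CPM with salubrinal and 6.80, 7.87 and 8.01 CPM in control. All 3 salubrinal libraries lay above all 3 control libraries, though salubrinal library 2 rests on 3 counts. The log2 fold change was 1.02 ± 0.34 (edgeR adjusted p = 0.0448). The call was kept without salubrinal library 2 and lost when any other library was left out, with values of 0.55 to 1.09 and an adjusted p up to 0.732. In the input, Slc7a11 had 1612 counts with salubrinal and 535 in control, a log2 ratio of 0.88 (exact interval 0.74 to 1.03, 1 library each, no test).

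LIPE-AS1 and H1FX-AS1 were called lower with salubrinal. LIPE-AS1 is named for hormone-sensitive lipase and also overlaps CXCL17, CEACAM1 and CEACAM8 in RefSeq. It had 9, 5 and 26 counts with salubrinal and 111, 49 and 136 in control, or 14.5, 20.1 and 4.99 CPM with salubrinal against 16.0, 29.7 and 18.2 CPM in control. Salubrinal libraries 1 and 3 lay below every control library and salubrinal library 2, with 5 counts, among them. Its log2 fold change was -1.35 ± 0.43 (edgeR adjusted p = 0.0379). H1FX-AS1, named for a linker histone gene, had 0, 0 and 18 counts with salubrinal and 52, 13 and 54 in control. Every salubrinal library (at most 3.45 CPM) lay below every control library (at least 7.21 CPM). In salubrinal library 2, however, 1 count stands for 4.02 CPM, so the 0 of H1FX-AS1 there cannot show a fall. Its log2 fold change was -1.37 ± 0.45 (edgeR adjusted p = 0.0434). Both rows are among the 19 that met the filter in 3 control libraries and fewer salubrinal ones, 2 for LIPE-AS1 and 1 for H1FX-AS1, so they were tested through the libraries where they are high. As for SLC7A11-AS1, both calls were kept without salubrinal library 2 and lost when any other library was left out; the adjusted p then reached 0.826 for LIPE-AS1 and 0.264 for H1FX-AS1.

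**Figure D3:**
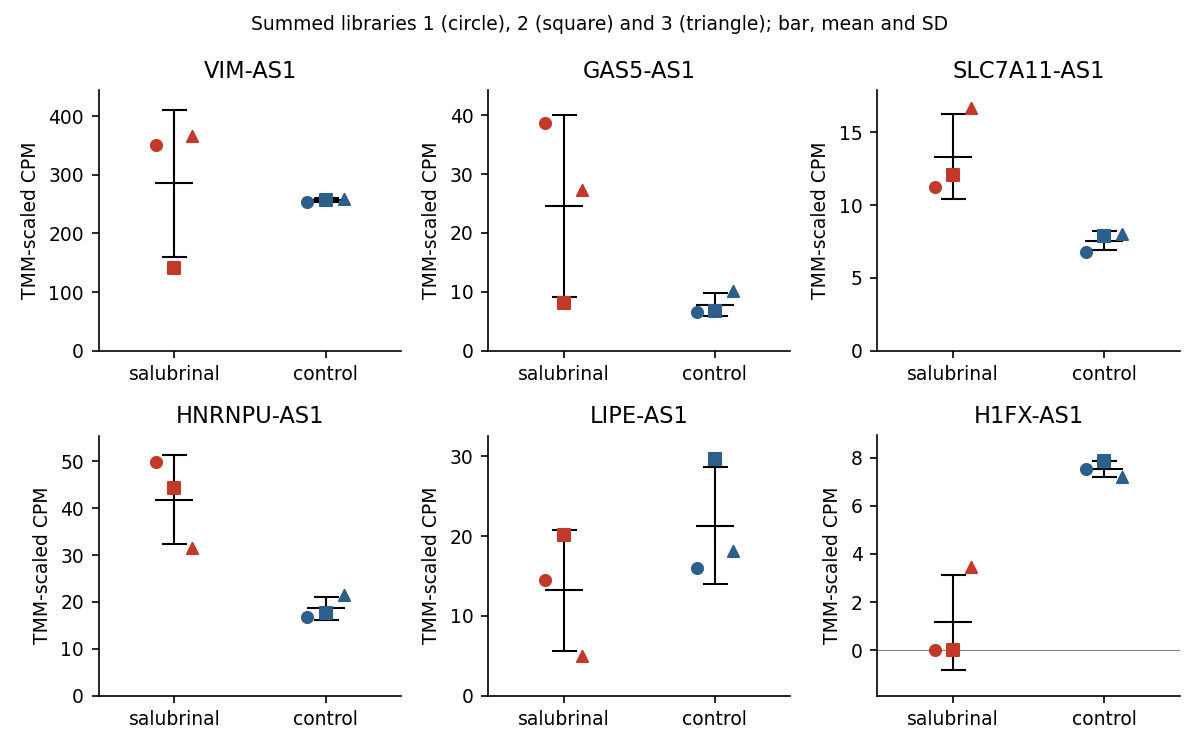
TMM-scaled CPM of 6 antisense rows in the salubrinal libraries (left, red) and the control libraries (right, blue), with the mean and SD of 3 libraries. SLC7A11-AS1 and HNRNPU-AS1 have all salubrinal points above all control points, H1FX-AS1 has them below, and GAS5-AS1, LIPE-AS1 and VIM-AS1 overlap through salubrinal library 2.

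VIM-AS1 had 218, 35 and 1907 counts with salubrinal and 1754, 426 and 1940 in control. On the CPM scale it averaged 286 ± 126 with salubrinal and 257 ± 2.88 in control (SD, n = 3 each). Salubrinal libraries 1 and 3 lay above all controls at 351 and 366 CPM, and salubrinal library 2 below all of them at 141 CPM. The log2 fold change was 0.16 ± 0.55 (edgeR adjusted p = 0.930). Without salubrinal library 2 it was 0.46 ± 0.12 with an adjusted p of 0.00747.

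Without salubrinal library 2, 7 of 78 tested members were called, against 10.9% of all rows: the 4 above, VIM-AS1, HNRNPU-AS1 and SGOL1-AS1. Over the 4 deepest libraries, chosen once these values were known, 6 of 106 were called, against 6.27% of all rows; there 1 salubrinal library is assumed to vary like the 3 controls, which alone give the spread. Without control library 1 none of 64 tested members was called, against 8 of 909 rows, and 5 members had an unadjusted p under 0.05. Without salubrinal library 2 HNRNPU-AS1 was called higher. This row, named for a nuclear RNA-binding protein, had 49.9, 44.3 and 31.5 CPM with salubrinal and 16.8, 17.6 and 21.5 CPM in control. The groups do not overlap, and with all 6 libraries the log2 fold change was 1.10 ± 0.43 (edgeR adjusted p = 0.101).

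Of the 62 tested members 16 had groups that do not overlap, 4 higher and 12 lower with salubrinal. That is 25.8%, and 24.5% of all rows tested did so (5.91% higher, 18.6% lower). Of the 19 rows that met the filter through the control libraries, 7 are among the lower ones and 2 among the higher. SLC7A11-AS1, HNRNPU-AS1, LEF1-AS1 and SLC25A5-AS1 were the higher ones. Among the lower ones, besides H1FX-AS1, were rows named for PCBP1, a poly(C)-binding protein, TMPO, a protein of the nuclear lamina, PRC1, a microtubule bundler of cytokinesis, and STARD7, a lipid carrier. Their log2 fold changes were -0.86 ± 0.39 for PCBP1-AS1, -0.73 ± 0.37 for TMPO-AS1, -0.59 ± 0.37 for PRC1-AS1 and -0.69 ± 0.38 for STARD7-AS1, with edgeR adjusted p from 0.192 to 0.420. TM4SF19-AS1 (-1.33, edgeR adjusted p = 0.0987) and OPA1-AS1 (-1.24, adjusted p = 0.101) came nearest to the threshold. In salubrinal library 2, with 3768 counts outside ribosomal RNA, PCBP1-AS1, TMPO-AS1, PRC1-AS1 and STARD7-AS1 had 1, 0, 1 and 0 counts. TM4SF19-AS1, OPA1-AS1 and H1FX-AS1 had 0 counts each there. At that depth such counts cannot show a fall. Of the higher rows, SLC7A11-AS1, HNRNPU-AS1, LEF1-AS1 and SLC25A5-AS1 had 3, 11, 2 and 1 counts there. Counts of 1 to 3 cannot show a rise at that depth either. For PCBP1-AS1 the groups came as near as 17.7 CPM with salubrinal and 18.2 CPM in control.

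**Figure D4:**
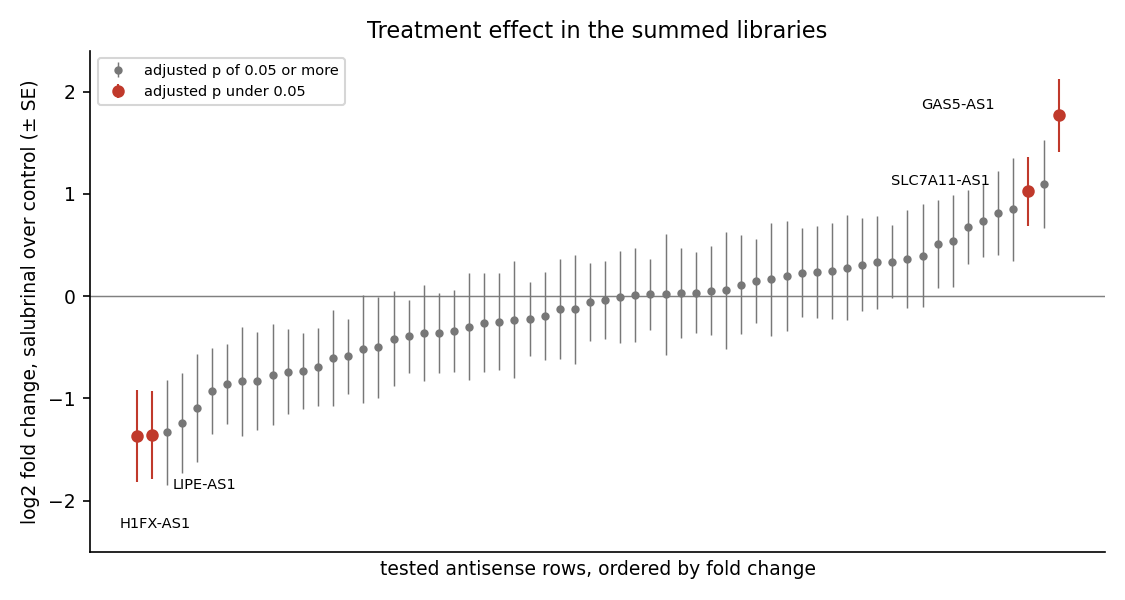
Log2 fold change, salubrinal over control, of the 62 tested antisense rows in the summed libraries, ordered by value, with bars of 1 SE. GAS5-AS1 at 1.77 and SLC7A11-AS1 at 1.02 are the called rows on the right and LIPE-AS1 at -1.35 and H1FX-AS1 at -1.37 those on the left.

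The other rows among the 12 with most counts did not pass the test. PXN-AS1, named for the focal adhesion protein paxillin, had 536 counts and a log2 fold change of 0.15 ± 0.41. SH3BP5-AS1 had 424 counts (0.04 ± 0.40), PRMT5-AS1, opposite an arginine methyltransferase, 240 counts (-0.39 ± 0.36), and RUSC1-AS1, which also overlaps FDPS, 237 counts (-0.22 ± 0.36). PRMT5 was a gene with 0 sense counts in all 6 libraries, although its input row held 1599 counts with salubrinal and 969 in control.

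By the role of the sense gene, the members are spread thinly. Of 8 lists of sense genes, that for the stress response and amino acid supply had 1 member, SLC7A11-AS1, and that for hosts of small nucleolar RNAs had 1, GAS5-AS1. Both were called higher, and both were known as high from earlier results of these data. The translation and RNA-binding list had 3 members, HNRNPU-AS1, PCBP1-AS1 and NOP14-AS1 (75 counts, log2 fold change -0.36 ± 0.47), all tested and none called. The transcription list had 5, of which CEBPZ-AS1 alone was tested (0.03 ± 0.44); SETD5-AS1, HMGN3-AS1, HOXB-AS3 and ZEB2-AS1 held 38, 29, 43 and 24 counts. The mitochondrial list had NDUFB2-AS1 (31 counts), the trafficking list LAMTOR5-AS1 (32 counts) and the cytoskeletal list VIM-AS1, and no member fell in the melanocyte list.

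Between gradient fractions the members were evenly spread. Over all libraries 24.5% of member counts lay in 40S files, 25.5% in 60S, 24.9% in 80S and 25.1% in polysome files. VIM-AS1 had 1524, 1604, 1589 and 1563 counts in these 4, GAS5-AS1 71, 76, 79 and 75, and SLC7A11-AS1 51, 59, 62 and 45. In salubrinal library 3, the deepest treated one, all members together had 1020, 1094, 1020 and 1112 counts, and in control library 3 they had 1347, 1329, 1359 and 1324. An edgeR F-test for any difference between fractions over the 24 files called 0 of 39 tested members and 0 of 593 rows (0.0%). The 4 files of each library had already been found to agree within sampling noise. The test therefore adds nothing on where these RNAs sediment. The smallest adjusted p of a member was 1.00, and 1 member had an unadjusted p under 0.05.

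Tested within each fraction, which are not independent of each other, GAS5-AS1 was the only member called. In polysome files 1 of 14 tested members was called (3.73% of all rows tested): GAS5-AS1 had 5, 1 and 34 counts with salubrinal and 15, 3 and 17 in control, a log2 fold change of 1.46 ± 0.42 (edgeR adjusted p = 0.0365). In 80S files 1 of 12 was called (12.7% of all rows): it had 8, 1 and 35 counts with salubrinal and 11, 2 and 22 in control, and 1.63 ± 0.39 (adjusted p = 0.00180). In both fractions every salubrinal CPM lay above every control CPM. Salubrinal library 2 had 1 count in each, at 13.3 CPM in 80S files against at most 13.1 CPM in control. In polysome files it stood at 14.3 CPM against at most 10.2 CPM. At 1 count that separation cannot be told from counting noise. In 60S and 40S files GAS5-AS1 was below the filter, and 0 of 14 and 0 of 13 members were called by edgeR (9.83% and 8.0% of all rows), with 2 and 0 at an unadjusted p under 0.05. In polysome files the call was lost when any library but salubrinal library 2 was left out, and in 80S files when salubrinal library 3 or any control library was. Without salubrinal library 2, 2 of 17 members were called in polysome files (13.2% of all rows), 3 of 17 in 80S (16.5%), 4 of 21 in 60S (12.7%) and 3 of 19 in 40S files (15.8%).

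In the input, 76 sense genes had at least 50 counts over both libraries, and there is no test with 1 library per treatment. Of these 1 was at least 2-fold higher with salubrinal and 4 at least 2-fold lower, against 2.75% and 3.8% of 10614 rows. Their median log2 ratio was -0.03, and that of all rows 0.02. Scaled to total gene counts instead, 35 were at least 2-fold higher and 0 lower, with the median of all rows at 0.95, so the directions here are relative to the typical row. Among sense genes with at least 200 input counts the highest ratio was that of CARS, the cysteinyl-tRNA synthetase, with 1229 counts with salubrinal and 286 in control (1.39, exact interval 1.21 to 1.59). LEF1, a transcription factor of Wnt signalling, followed with 2199 and 717 counts (0.91), then SLC7A11 (0.88), SPTY2D1 (0.83, from 210 and 72 counts) and HIF1A, the hypoxia factor, with 5586 and 1971 counts (0.80). The lowest were NAV2 (-1.37, from 1730 and 2753 counts), THAP7 (-1.36, from 92 and 147), CD81, a tetraspanin (-1.05, from 520 and 661), RNF157 and PCBP1 (both -0.66).

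Of these 10 sense genes 6 had an antisense row that was tested, as had 47 of the 76. CARS-AS1 had 1, 0 and 18 counts with salubrinal and 8, 1 and 10 in control, below the filter. LEF1-AS1 had 5, 2 and 35 counts with salubrinal and 26, 11 and 25 in control. That is 8.04, 8.05 and 6.71 CPM with salubrinal and 3.76, 6.66 and 3.34 CPM in control. The groups just do not overlap, but salubrinal library 2 rests on 2 counts. The log2 fold change was 0.81 ± 0.41 (edgeR adjusted p = 0.271). HIF1A-AS1, whose window is shown above, had 2, 1 and 53 counts with salubrinal and 36, 8 and 44 in control, and 0.67 ± 0.36 (adjusted p = 0.309). SPTY2D1-AS1 was at -0.50 ± 0.49 although the input ratio of SPTY2D1 was 0.83. Across the 47 genes with both values, the log2 fold change of the antisense row and the input log2 ratio of the sense gene gave r = 0.49 and rho = 0.36 as a description, and 23 of 47 had the same sign.

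**Figure D5:**
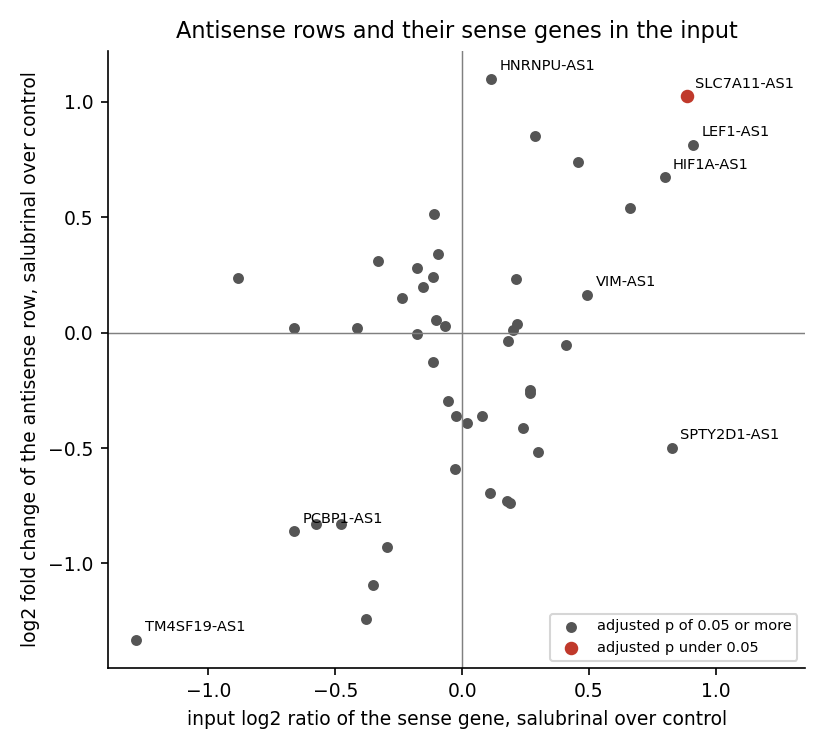
Each of the 47 points is a pair, with the input log2 ratio of the sense gene (salubrinal over control, 1 library each) on the horizontal axis and the log2 fold change of the antisense row in the summed libraries on the vertical axis. SLC7A11-AS1, the called row (red), lies at the upper right with LEF1-AS1 and HIF1A-AS1, TM4SF19-AS1 at the lower left, and SPTY2D1-AS1 off the diagonal.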

How the data were processed

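The authors deposited raw read counts per gene for SK-MEL-28, 24 files of gradient fractions and 2 of input RNA. HTSeq 0.5.3p3, STAR, DESeq, SAMtools 0.1.19.24 and FastQC 0.11.5 are named in the submitters' processing notes, with the build hg19; STAR's version, the annotation and the strand setting were not given in the sources used here. Titles gave the groups; the labels' cell line entry has numbered names where every title has SK-MEL-28.

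Members, gene lists and tests were chosen with earlier results of these data known. Rows that name no gene entered neither library sizes nor tests. Files of a library were recognised by a chi-square test, leaving out ribosomal RNA rows and rows under 10 counts, and were summed. Counts were tested with the quasi-likelihood test of edgeR 4.0.16 (R 4.3.3). It used robust glmQLFit after filterByExpr and TMM, and adjusted p by Benjamini-Hochberg with a threshold of 0.05. The test was run in the summed libraries, in each fraction and between fractions. On simulated counts for the summed libraries it recovered 28.1, 60 and 61% of rows changed by a log2 fold change of 1, 2 and 3. Of its calls there, 4.01, 5.67 and 9.98% were false. A row that was not called may therefore still have changed. Standard errors are the absolute log2 fold change over the square root of the F statistic of the edgeR test. Alternatives used DESeq2 1.42.0, RLE factors, library sizes alone, other filters and rows, a replicate block and left-out libraries. Input ratios use TMM scaling and a prior count of 2, matched by changing the case of the symbol; intervals are exact conditional binomial at 95%. RefSeq of GRCh38.p14 gave names, overlaps and sequences only, since the files are on hg19.

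Named rows were VIM-AS1, GAS5-AS1 and SLC7A11-AS1, the 12 members with most counts, those called, the 6 lowest antisense shares among pairs with at least 100 counts, the 5 highest and 5 lowest input ratios among sense genes with at least 200 input counts, and members of the lists. SGOL1-AS1, SLC25A5-AS1, TM4SF19-AS1, OPA1-AS1 and DNAJC9-AS1, the rows at the count limit, and the 4 deepest libraries, pairs without VIM-AS1 and pairs with 50 input counts as alternatives, were chosen after the data were seen.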

Additional observations from a re-analysis of the deposited data

Results flagged for a closer look

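ZNF337-AS1 lay on opposite sides of control in different fractions, taken as its share of the counts outside ribosomal RNA in each file. In 60S files it had 2, 1 and 9 counts with salubrinal, 12 in all, and 10, 2 and 5 in control, and every salubrinal share lay above every control share. In 80S files it had 0, 0 and 3 counts with salubrinal, 3 in all, and 9, 1 and 8 in control, and in polysome files 0, 0 and 5 with salubrinal, 5 in all, and 11, 4 and 11 in control; there every salubrinal share lay below. The salubrinal files of libraries 1 and 2 were shallow, with 2464 and 971 counts outside ribosomal RNA in 60S. They held 2554 and 993 in 80S and 2628 and 931 in polysome files. At that depth 0, 1 or 2 counts cannot tell a reversal from counting noise. The 4 files of each library agreed within sampling noise, as given above. The difference between fractions was not tested for this row alone.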

How the results depend on the processing

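Of the 4 members called in the summed libraries, DESeq2, the fit with the replicate block and the fit without the 40S files each kept 1, GAS5-AS1. Of all rows these fits called 24 of 10224, 24 of 913 and 42 of 727. Library sizes alone and no filter on low counts left 0 members, with 0 of 913 and 4 of 10224 rows called. RLE factors gave 3 members, losing SLC7A11-AS1 (60 of 913 rows). A minimum of 50 counts gave 5 (79 of 869 rows). The fit without ribosomal RNA rows gave 6 (91 of 748 rows). The fit without mitochondrial, ribosomal and small RNA rows gave 6 (84 of 708 rows). Placing the control 40S files by their titles also gave 6 members (89 of 856 rows). Leaving out 1 library gave 0 to 7 members, with 8 to 117 of all rows called. Whether replicate numbers pair the libraries is not settled. Deviations of same-numbered ones correlated at -0.02, 0.21 and 0.36, and those of differently numbered ones at -0.34 to 0.14. The same-numbered value was the highest for salubrinal libraries 2 and 3 and not for library 1. The block also took the polysome count from 1 to 0 and changed no other count. Library sizes alone moved the median of all rows to -1.30; SLC7A11-AS1 then stood at -0.22, reversed in sign, but 1.08 above that median. The median also moved to 1.13 with DESeq2, where SLC7A11-AS1 stood at 0.80 (-0.33 relative to it), and to -0.86 without a filter. In polysome files DESeq2, library sizes alone and no filter gave 0 members, and they called 0 of all rows too. The fit without ribosomal RNA rows gave 4 of 11 members, with 26 of 165 rows called. Left-out libraries gave 0 to 2 members, with 0 to 39 of all rows called. In 80S files DESeq2, library sizes alone and no filter gave 0 members, with 9, 0 and 0 of all rows called. RLE factors gave 2 of 12 members (32 of 213 rows) and the fit without ribosomal RNA rows 2 of 9 (38 of 159 rows). Left-out libraries gave 0 to 3 members, with 0 to 46 of all rows called. In 60S files RLE factors gave 1 of 14 members (26 of 234 rows) and the fit without ribosomal RNA rows 2 of 8 (35 of 166 rows). Left-out libraries gave 0 to 4 members there, with 0 to 39 of all rows called. In 40S files the fit without ribosomal RNA rows gave 2 of 7 members (46 of 163 rows). Left-out libraries gave 0 to 3 members there, with 0 to 47 of all rows called. With a minimum of 10 counts the antisense row was higher in 154 of 162 pairs, with 48 counts in 57 of 59, and without any 1 library in 101 of 104. Input ratios scaled to total gene counts put 35 sense genes, not 5, at least 2-fold apart, while the median of all rows stood at 0.95. The causes were not tested. The 100 member counts of salubrinal library 2 limit every comparison of the treatments, and the input has 1 library per treatment.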
